A study of Mus musculus with 12 samples.

Results

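The genes Fgg, Fga and Fgb, which encode the 3 chains of fibrinogen, were followed in mouse kidney RNA across 12 libraries, 3 in each of 4 groups. They were taken by symbol from a table of 56748 genes, and each symbol named 1 gene there. They had drawn attention because all were higher after ischemia/reperfusion (IR) than after sham surgery, so their differences between IR and sham are a description and carry no test. The groups were cKO IR, WT IR, cKO sham and WT sham. In the cKO mice Krt20, a keratin gene, was knocked out conditionally in proximal tubular cells of the kidney, and WT is wild type. All mice were males of 8 to 12 weeks under pentobarbital. IR clamped the vessels of both kidneys for 30 min and was followed by 24 h of reperfusion, and sham mice had the same surgery with no clamp. Neither the Cre driver and strain nor the number of animals behind a library is stated in the labels, so the p-values below speak only of the scatter among libraries, which may be technical.

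Fibrinogen is the soluble plasma protein that thrombin turns into fibrin, the mesh of a blood clot. It is a dimer of 3 different chains, Aα (Fga), Bβ (Fgb) and γ (Fgg), which are assembled in the endoplasmic reticulum before secretion. Hepatocytes make nearly all plasma fibrinogen and raise all chains in the acute phase response, mainly through interleukin-6 (IL-6), its receptor chain gp130 and the transcription factor STAT3, together with C/EBP factors. Transcription of fibrinogen genes has also been described in the kidney tubule of rodents after ischemia.

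The chains lie side by side on chromosome 3. The submitters' notes name both mm8 and mm9 and do not say which build the coordinates of the deposited table use. In those coordinates Fgg (ENSMUSG00000033860) runs from 82915031 to 82922356 on the plus strand, Fga (ENSMUSG00000028001) from 82933383 to 82940934 on the plus strand, and Fgb (ENSMUSG00000033831) from 82947448 to 82957170 on the minus strand. All 3 fit within 42140 bases. Fgg and Fga are 11026 bases apart, Fga and Fgb 6513 bases. The promoters, whose positions are not in the deposited coordinates, are printed because the genes moved together in these libraries. They come from RefSeq (GRCm38.p6), which matched 3 of 3 genes, and each spans 250 bases before and 50 bases from the annotated start: Fgg at chr3:83007474-83007773 on the plus strand, Fga at chr3:83025903-83026202 on the plus strand, and Fgb at chr3:83049814-83050113 on the minus strand. Capitals mark matches, on either strand, to 3 short motifs: CTGGGA (core of the IL-6 response element), TTGCNNAA (C/EBP) and TTCNNNGAA (STAT). No matches overlapped.
Fgg: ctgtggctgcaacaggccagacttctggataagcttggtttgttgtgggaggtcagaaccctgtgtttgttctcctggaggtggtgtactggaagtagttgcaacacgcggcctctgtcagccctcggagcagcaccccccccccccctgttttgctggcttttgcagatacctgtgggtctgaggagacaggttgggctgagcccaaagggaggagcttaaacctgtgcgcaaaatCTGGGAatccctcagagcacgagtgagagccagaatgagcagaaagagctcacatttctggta
Fga: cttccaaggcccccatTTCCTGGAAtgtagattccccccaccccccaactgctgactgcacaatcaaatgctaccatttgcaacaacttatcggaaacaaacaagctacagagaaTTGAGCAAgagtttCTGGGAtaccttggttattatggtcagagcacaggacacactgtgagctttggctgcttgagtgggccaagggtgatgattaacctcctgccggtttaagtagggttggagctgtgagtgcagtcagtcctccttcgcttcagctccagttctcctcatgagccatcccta
Fgb: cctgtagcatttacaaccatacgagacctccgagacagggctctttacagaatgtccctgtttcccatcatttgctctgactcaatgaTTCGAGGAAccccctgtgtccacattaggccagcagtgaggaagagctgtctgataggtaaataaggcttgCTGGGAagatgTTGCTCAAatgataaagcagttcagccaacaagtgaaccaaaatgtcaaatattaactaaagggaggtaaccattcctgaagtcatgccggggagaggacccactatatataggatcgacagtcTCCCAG
With the start counted as +1, CTGGGA began at -13 in Fgg, at -121 in Fga and at -91 in Fgb, and a copy on the other strand began at 45 in Fgb. It occurred in 3 of the 3 promoters, and in 31.8% of all 32544 RefSeq promoters of that length. The other motifs occurred in Fga and Fgb. The C/EBP match began at -135 in Fga and -80 in Fgb (10.8% of all promoters), and the STAT match at -234 and -162 (8.33%). Such matches describe letters in these windows, not binding.

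Levels are FPKM, fragments scaled by the length of the gene model and by the depth of the library, which allow genes to be compared per length. The libraries held 13187531 to 15962303 reads each. Genes of the kidney's proximal tubule were abundant: the FPKM of 24 of them summed to 10487 to 14043 in cKO IR, 8377 to 19646 in WT IR, 23866 to 30471 in cKO sham and 29545 to 32380 in WT sham, although the extraction text of the labels names another tissue. Krt20 itself stood at 28.2, 35.6 and 47.0 FPKM in cKO IR and at 84.0, 64.9 and 59.9 FPKM in WT IR. It was at most 0.157 FPKM in the 6 sham libraries. The IR groups did not overlap, but the log2 difference of -0.91 (SE 0.17) missed the threshold of the test (limma, adjusted p = 0.132). Library WT IR 2 stood apart: on the first principal component it lay at 9.84, against 34.9 and 42.1 for the other WT IR libraries.

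Fibrinogen RNA was lower in WT sham kidneys than in any other group, and Fgg and Fga were among the abundant messages after IR. By FPKM among all genes of a library, Fga ranked 41 to 112 in cKO IR, 100 to 235 in WT IR and 4783 to 6060 in WT sham. Fgb ranked 278 to 942, 764 to 2447 and 15161 to 17584 in those groups. The summed level of the chains averaged 837 FPKM in cKO IR, 420.2 FPKM in WT IR, 38.4 FPKM in cKO sham and 12.7 FPKM in WT sham. By library, the sum was 890, 577 and 1043 FPKM in cKO IR, 574, 364 and 322 FPKM in WT IR, 24.3, 44.6 and 46.4 FPKM in cKO sham and 12.9, 13.8 and 11.4 FPKM in WT sham. The mean sum in cKO IR was 1.99 times that in WT IR, and in cKO sham 3.02 times that in WT sham. In these whole-kidney samples, fewer cells of a type and less RNA per cell cannot be told apart.

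Fgg, the γ chain, stood at 422, 285 and 458 FPKM in cKO IR, at 274, 189 and 167 FPKM in WT IR, at 10.1, 22.4 and 23.7 FPKM in cKO sham and at 3.36, 4.37 and 4.36 FPKM in WT sham. In deposited FPKM the 4 groups formed 4 separate bands, though between the IR groups this depended on the scaling. In cKO IR it ranked 43 to 85 among all genes of a library by FPKM, and in WT IR 83 to 183, against 2011 to 4515 in cKO sham and 7800 to 8851 in WT sham. The group means were 388 ± 91.6, 210.2 ± 56.5, 18.7 ± 7.52 and 4.03 ± 0.578 FPKM (SD, n = 3 each, in that order of groups). The mean after IR was 20.8 times the sham mean in cKO kidneys and 52.2 times in WT kidneys.

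Fga, the Aα chain, stood at 378, 243 and 466 FPKM in cKO IR, at 243, 155 and 131 FPKM in WT IR, at 13.4, 20.8 and 21.8 FPKM in cKO sham and at 9.05, 9.20 and 6.72 FPKM in WT sham. In deposited FPKM the bands were again separate, with cKO IR 2 lying just above WT IR 1, an order that also depended on the scaling. Means were 363 ± 112 FPKM in cKO IR, 176 ± 59.2 FPKM in WT IR, 18.7 ± 4.57 FPKM in cKO sham and 8.32 ± 1.39 FPKM in WT sham (SD, n = 3 each). The mean after IR was 19.4 times the sham mean in cKO kidneys and 21.2 times in WT kidneys.

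Fgb, the Bβ chain, was the least abundant. It stood at 89.8, 49.3 and 118 FPKM in cKO IR, at 56.8, 20.2 and 24.1 FPKM in WT IR, at 0.832, 1.46 and 0.882 FPKM in cKO sham and at 0.505, 0.236 and 0.337 FPKM in WT sham. Here WT IR 1 lay above cKO IR 2, so the IR groups overlapped, while the sham groups did not. Sham values rested on 48 to 81 reads in cKO and 13 to 26 reads in WT. Means were 85.8 ± 34.6, 33.7 ± 20.1, 1.06 ± 0.350 and 0.359 ± 0.136 FPKM in cKO IR, WT IR, cKO sham and WT sham (SD, n = 3 each). The mean after IR was 81.0 times the sham mean in cKO kidneys and 93.9 times in WT kidneys. Genes entered the tests when their mean reached 1 FPKM, which Fgb did only through its IR levels.

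**Figure D1:**
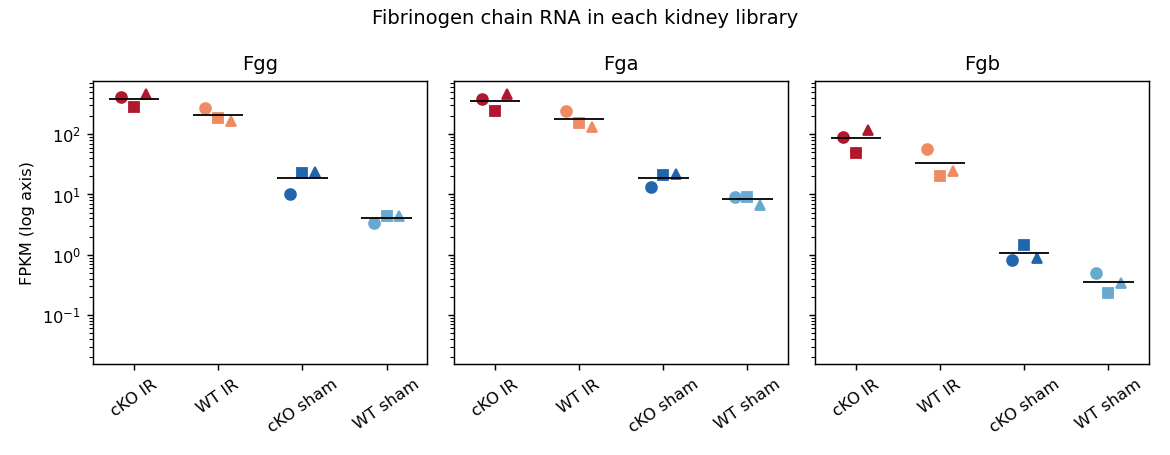
Level of each chain in FPKM on a log axis, by group, with 1 point per library (circle, square and triangle for replicates 1, 2 and 3) and a line at the group mean. For Fgg and Fga the 4 groups form separate bands, and for Fgb the point of WT IR 1 at 56.8 FPKM lies above that of cKO IR 2 at 49.3 FPKM.

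The genotypes were then compared, a contrast that had not been used to choose the chains. After IR, the chains were higher on average in cKO than in WT kidneys, but none passed the test. The ratio of means, cKO IR over WT IR, was 1.85 for Fgg, 2.06 for Fga and 2.54 for Fgb. On the log2(FPKM + 1) scale, the difference was 0.89 for Fgg (SE 0.31, 95% interval 0.21 to 1.56, limma adjusted p = 0.236), 1.04 for Fga (SE 0.29, 0.40 to 1.67, adjusted p = 0.178) and 1.38 for Fgb (SE 0.37, 0.56 to 2.2, adjusted p = 0.175). Unadjusted p-values in limma were 0.015, 0.00421 and 0.00367. The adjustment ran over 12868 tested genes, of which 0.0% were called in this contrast, with 1926 at an unadjusted p under 0.05 and 1 call by limma voom on reads. Without WT IR 2 the differences were 0.83, 0.97 and 1.10, again uncalled. An exact permutation test on FPKM gave p = 0.1 for Fgg and for Fga, the smallest value that 3 libraries against 3 allow, and p = 0.2 for Fgb. The libraries of cKO IR and WT IR did not overlap for 2 of the 3 chains, and for 16.0% of all tested genes in either direction.

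In sham kidneys Fgg was higher in cKO than in WT, and it was the 1 chain called. Its ratio of means was 4.65, and its log2 difference 1.89 (SE 0.31, 95% interval 1.21 to 2.57, limma adjusted p = 0.014, higher in 3 of 3 cKO libraries than in any WT library). The ratio of means was 2.24 for Fga, with a log2 difference of 1.06 (SE 0.29, interval 0.43 to 1.69, adjusted p = 0.137). For Fgb the ratio was 2.95 and the log2 difference 0.59 (SE 0.37, interval -0.23 to 1.41, adjusted p = 0.648), a scale that understates change at such low FPKM. Of all tested genes 1.1% were called in this contrast, 0.847% as higher in cKO. The libraries of cKO sham and WT sham did not overlap for all 3 chains, and for 25.1% of tested genes in either direction. The exact permutation p was 0.1 for each chain.

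The call of Fgg in sham kidneys was lost without any 1 of 4 sham libraries. The adjusted p in limma was 0.0734 without cKO sham 2, 0.0682 without cKO sham 3, 0.0619 without WT sham 2 and 0.0544 without WT sham 3, with log2 differences of 1.68 to 2.26 over all leave-one-out fits. The sham groups also differed in other measures. Mitochondrial genes took 8.11% to 8.47% of reads in cKO sham and 9.82% to 10.4% in WT sham. Over 19 hepatocyte markers the summed level was 589 to 799 FPKM in cKO sham and 805 to 986 FPKM in WT sham. Most of that sum was Cyp2e1 and Ttr, so it says little about the other markers. Of the 19, 5 were at 0 in every cKO sham library and 3 in every WT sham library. The part of these in the Fgg result was not tested.

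The interaction, the IR difference in cKO minus that in WT kidneys, was not called for any chain. It was -1.0 for Fgg (SE 0.43, 95% interval -1.96 to -0.05, limma adjusted p = 0.317), -0.02 for Fga (SE 0.40, interval -0.92 to 0.87, adjusted p = 0.988) and 0.79 for Fgb (SE 0.53, interval -0.37 to 1.95, adjusted p = 0.534). Of all tested genes 0.878% were called. The chains had been chosen on the IR effects that enter this contrast. The sign for Fgb turned to -0.24 under limma voom on reads, and the sign for Fga turned without cKO IR 2, cKO sham 2, cKO sham 3, WT IR 1 or WT sham 3.

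**Figure D2:**
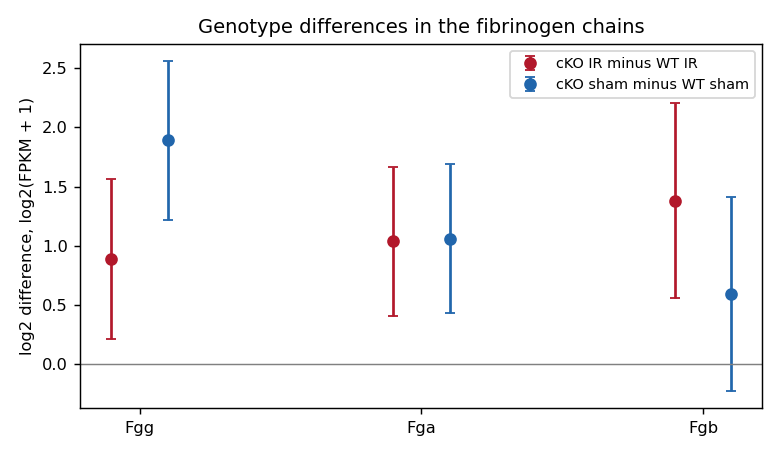
Genotype difference of each chain on the log2(FPKM + 1) scale, cKO minus WT, with 95% intervals from limma, after IR (red, left of each pair) and after sham surgery (blue, right). All 6 points lie above 0, and the interval of Fgb in sham kidneys, -0.23 to 1.41, includes 0.

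The balance of the chains was set side by side between conditions, with no test of IR against sham. Per length, Fgg and Fga were close to each other after IR. Their ratio, Fgg over Fga, was 0.983 to 1.17 in cKO IR and 1.13 to 1.28 in WT IR, and 0.751 to 1.09 in cKO sham. In WT sham Fga was the leading chain in every library, with a ratio of 0.371 to 0.649. IR and sham overlapped in this ratio in cKO kidneys but not in WT kidneys. The genotypes did not overlap in sham kidneys, where the log2 ratio differed by 0.98 (exact permutation p = 0.1, the smallest possible). After IR they overlapped, with a log2 difference of -0.15 (exact permutation p = 0.2).

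Fgb was the minor chain throughout, more so in sham kidneys. It made up 9.99% ± 1.40 of the summed chains in cKO IR and 7.65% ± 2.18 in WT IR, against 2.87% ± 0.839 in cKO sham and 2.86% ± 1.10 in WT sham (SD, n = 3 each). Fga held 43.1% in cKO IR and 41.8% in WT IR, against 49.6% in cKO sham and 65.2% in WT sham. Fgg held 46.9% in cKO IR and 50.5% in WT IR, against 47.6% in cKO sham and 32.0% in WT sham. Fgg over Fgb was 3.88 to 5.77 in cKO IR and 4.82 to 9.34 in WT IR (log2 difference -0.52, exact permutation p = 0.2), and 12.1 to 26.9 in cKO sham and 6.65 to 18.5 in WT sham (log2 difference 0.55, exact permutation p = 0.5). Fga over Fgb was 3.94 to 4.94 in cKO IR and 4.28 to 7.67 in WT IR (log2 difference -0.37, exact permutation p = 0.2), and 14.2 to 24.7 in cKO sham and 17.9 to 38.9 in WT sham (log2 difference -0.43, exact permutation p = 0.4). Genotypes overlapped in all 4 of these ratios. IR and sham overlapped for Fgg over Fgb in WT kidneys, but not for Fgg over Fgb in cKO kidneys or for Fga over Fgb in either genotype.

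These levels depend on the length of the gene model. The deposited models hold 2093 bases for Fgg, 3010 for Fga and 3810 for Fgb, and in the GENCODE M21 annotation coding bases make up 64.1%, 79.0% and 37.9% of them. With reads divided by coding length, in a calculation added after the data were seen, the share of Fgb was 17.1% in cKO IR and 13.2% in WT IR, against 5.24% in cKO sham and 5.38% in WT sham. Fgb remained the minor chain in every library, and differences between groups in log2 ratios do not depend on the length used.

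**Figure D3:**
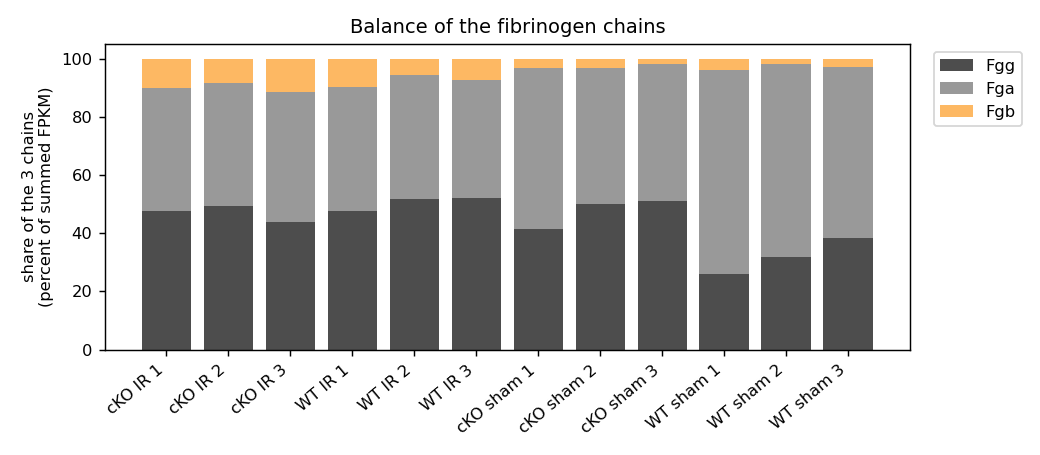
Share of each chain in the summed FPKM of the 3 chains, in percent, with 1 bar per library. Fgb (orange) takes 5.55% to 11.3% in the 6 IR libraries and 1.71% to 3.91% in the 6 sham libraries, and Fga (grey) leads in every WT sham library.

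The chains varied between libraries of a group, which raised the question of how closely they followed injury. An index of injury was the mean log2(FPKM + 1) of 20 tubular injury genes, among them Havcr1 (kidney injury molecule 1) and Lcn2 (lipocalin 2), and it was 5.99, 6.18 and 6.16 in cKO IR and 5.75, 4.98 and 5.94 in WT IR. It was 2.43 to 2.66 in the sham libraries. Over the 6 IR libraries, Pearson's r with the index was 0.56 for Fgg, 0.55 for Fga and 0.67 for Fgb (exact permutation p = 0.253, 0.285 and 0.126, each 0.285 after adjustment over 3 relations). Spearman's rho was 0.66, 0.66 and 0.54 (exact permutation p = 0.175, 0.175 and 0.297, adjusted 0.262, 0.262 and 0.297). Without WT IR 1 and WT IR 2, the farthest from the median index, r was 0.49, 0.52 and 0.49. With Havcr1 alone in place of the index, r was 0.81, 0.78 and 0.86 for Fgg, Fga and Fgb (exact permutation p = 0.0444, 0.0681 and 0.0222, adjusted 0.0667, 0.0681 and 0.0667), and 0.83, 0.82 and 0.77 without WT IR 2 and cKO IR 1. Spearman's rho was 0.77 for each (exact permutation p = 0.103, adjusted 0.103). With Lcn2 alone, r was 0.86, 0.87 and 0.91 (exact permutation p = 0.0208, 0.0181 and 0.00694, adjusted over the 3 chains 0.0208 each). It was 0.88, 0.85 and 0.79 without WT IR 2 and cKO IR 3. Spearman's rho with Lcn2 was 0.94 for each chain (exact permutation p = 0.0167, adjusted 0.0167). The genotypes did not overlap on the index, on Havcr1 or on Lcn2, so genotype and injury cannot be told apart in these values. The permutations ran across both genotypes, so no p here is a test of injury apart from genotype. Each adjustment covered the 3 chains for 1 measure and not the injury measures tried together. Within a genotype, 3 libraries are too few for a value.

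Within each genotype the library with the highest index was not the one with the most fibrinogen. In cKO IR, library 2 had the highest index, 6.18, and the lowest level of all 3 chains. In WT IR, library 3 had the highest index, 5.94, and the lowest Fgg and Fga. WT IR 2, with an index of 4.98, had more Fgg and Fga than WT IR 3 and less Fgb. Lcn2 alone, itself an acute phase gene, stood at 122, 109 and 215 FPKM in cKO IR and at 83.7, 48.6 and 77.6 FPKM in WT IR. Its order matched that of the chains in cKO IR, and in WT IR the top library was WT IR 1 for Lcn2 and for each chain. Havcr1 stood at 1163, 982 and 1159 FPKM in cKO IR and at 782, 485 and 797 FPKM in WT IR.

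**Figure D4:**
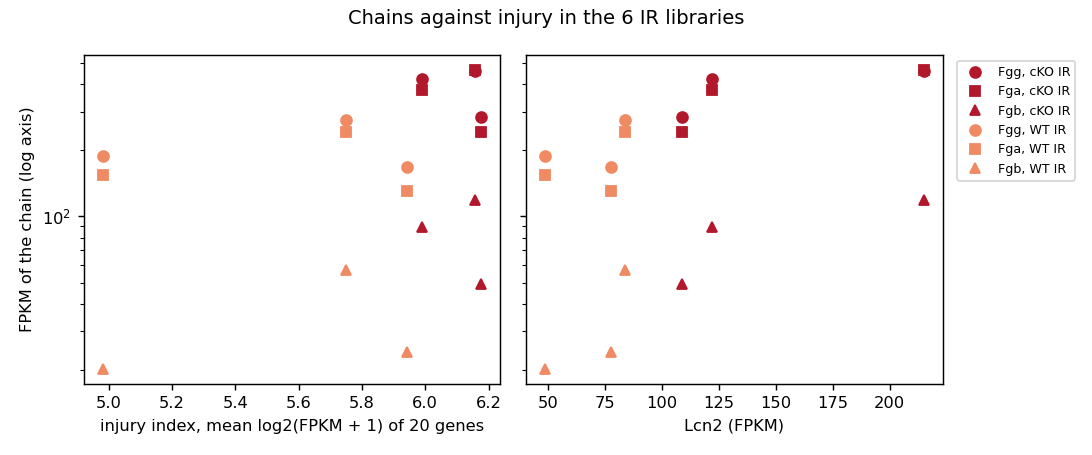
Level of each chain in the 6 IR libraries (FPKM, log axis) against the injury index (left, mean log2(FPKM + 1) of 20 genes) and against Lcn2 (right, FPKM), with cKO IR in red and WT IR in orange. WT IR 2 lies far left at an index of 4.98, and on the right the chains of cKO IR 3 lie at 215 FPKM of Lcn2.

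The signals that are known to act on fibrinogen genes in the liver were followed next. These lists were not chosen independently of earlier results. In this study 50.8% of the 12868 tested genes were called in cKO IR against cKO sham (3571 higher and 2967 lower). In WT IR against WT sham the share was 42.2% (2910 higher and 2514 lower). Counts of called members in each direction are read beside the share of that direction, which is smaller than the total. A gene whose sham mean lay under 1 FPKM entered the tests only through its IR level, and had to be higher after IR. The reverse held for a gene whose IR mean lay under 1 FPKM. Such genes are given by their levels, and counts are also given without them where a list held any. Among 8 ligands of the IL-6 family, 4 were tested, of which Lif and Il11 entered through their IR levels. Of the other 2, Clcf1 rose in both genotypes (log2 difference 3.15 in cKO and 2.08 in WT, limma adjusted p = 2.95e-06 and 4.86e-05), and Ctf1 fell in cKO kidneys (-0.56, adjusted p = 0.00189). All these ligands signal through gp130. Clcf1 averaged 20.02 FPKM in cKO IR, 11.2 FPKM in WT IR, 1.35 FPKM in cKO sham and 1.78 FPKM in WT sham. Lif averaged 7.78, 4.55, 0.130 and 0.139 FPKM in the same groups. Il6 and Osm (oncostatin M) were too low to be tested, with Il6 at 0.388 FPKM in cKO IR, 0.126 FPKM in WT IR and at most 0.0104 FPKM in either sham group. Osm averaged at most 0.246 FPKM in any group.

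Of 6 receptors, 5 were tested. In cKO kidneys 1 rose and 3 fell, and in WT kidneys 2 rose and 3 fell, where 1 of those lower, Cntfr, entered through its sham level. Osmr, the oncostatin M receptor, averaged 5.73 FPKM in cKO IR against 1.81 FPKM in cKO sham (log2 difference 1.24, limma adjusted p = 0.00195) and 3.56 FPKM in WT IR against 1.25 FPKM in WT sham (0.96, adjusted p = 0.0104). Il6st, which encodes gp130, rose in WT kidneys (0.36, adjusted p = 0.0357), a call lost without WT IR 1, WT IR 3, WT sham 2 or WT sham 3, each of which left 1 receptor called as higher. Il6ra averaged 0.681 to 0.898 FPKM over the groups and was not tested.

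Of 13 genes of the STAT3 pathway, 11 were tested, and 8 rose in cKO kidneys with none lower, while in WT kidneys 7 rose and 1 fell. Stat3 averaged 31.0 ± 0.413 FPKM in cKO IR, 24.1 ± 3.97 FPKM in WT IR, 15.7 ± 1.70 FPKM in cKO sham and 9.26 ± 0.0838 FPKM in WT sham (SD, n = 3 each). It was the 1 of the 11 called in cKO sham against WT sham (log2 difference 0.69, limma adjusted p = 0.0107), against 1.1% of all tested genes. That call was lost without cKO sham 2, WT sham 2 or WT sham 3 (adjusted p up to 0.0604). Socs3, a feedback inhibitor and target of STAT3, was not called in that contrast (0.32, limma adjusted p = 0.744). Socs3 averaged 17.7 FPKM in cKO IR, 11.5 FPKM in WT IR, 1.61 FPKM in cKO sham and 1.07 FPKM in WT sham. Bcl3 rose likewise, and Cish, a target of STAT5, fell in WT kidneys (-1.51, limma adjusted p = 0.0133, over 0.05 without WT IR 3). The WT count of 7 was 4 without WT IR 1, WT sham 1 or WT sham 3.

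Of 13 transcription factors of fibrinogen promoters, 10 were tested. In cKO kidneys 3 rose and 6 fell, and in WT kidneys 3 rose and 2 fell. Of all 12868 tested genes, 3571 rose and 2967 fell in cKO, and 2910 rose and 2514 fell in WT kidneys. The count of factors that rose was thus near the share of all tested genes in each genotype. Those 3 factors were Stat3, Cebpb and Cebpd. Of the 10, Stat3 was the 1 called in cKO sham against WT sham. In that contrast Cebpb and Cebpd were at -0.30 and -0.59 (limma adjusted p = 0.65 and 0.41). Cebpb averaged 38.7 FPKM in cKO IR against 9.31 FPKM in cKO sham (log2 difference 1.95, limma adjusted p = 2.49e-05), and 19.8 FPKM in WT IR against 11.9 FPKM in WT sham (0.69, adjusted p = 0.0143, over 0.05 without WT IR 1, WT sham 1 or WT sham 3). Hnf4a, a factor of hepatocytes and tubule cells, fell in cKO kidneys, with a log2 difference of -0.67 (limma adjusted p = 0.00182), and was at -0.29 in WT kidneys, where it was not called. The WT counts moved with single libraries: 1 rose and none fell without WT IR 1, 3 rose and 5 fell without WT IR 2, 3 rose and none fell without WT IR 3, and 1 rose and 1 fell without WT sham 1 or WT sham 3, and 3 rose and 1 fell without WT sham 2.

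Other acute phase genes of the liver were followed. Of 25 listed, 8 were tested, of which 4 entered only through their IR levels (Lcn2, Saa1, Hp and Serpina3n). The other 4, C3, Cp, Mt1 and Mt2, rose in both genotypes. Lcn2, an iron-scavenging protein, averaged 149 FPKM in cKO IR, 69.9 FPKM in WT IR, 0.389 FPKM in cKO sham and 0.371 FPKM in WT sham. C3, the central complement component, averaged 80.7 FPKM in cKO IR, 81.0 FPKM in WT IR, 15.03 FPKM in cKO sham and 3.93 FPKM in WT sham. It was the 1 of the 8 called in cKO sham against WT sham (log2 difference 1.66, limma adjusted p = 0.0419), against 1.1% of all tested genes. That call was not given by 11 of 19 alternative fits. Classical plasma markers stayed low: Saa1 averaged 2.86 FPKM in cKO IR and 1.23 FPKM in WT IR, Orm1 0.442 and 0.199 FPKM, and Crp at most 0.0261 FPKM in any group. None of the tested acute phase genes was called in cKO IR against WT IR, and 1 was called as lower without WT IR 1.

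The chains were then set beside markers of cells that could bring in fibrinogen RNA. Hepatocyte markers in the table numbered 19, of which 11 lay under 1 FPKM in every cKO IR library and 11 in every WT IR library. Of the 8 tested, none rose, and 2 fell in cKO and 3 in WT kidneys (5 without WT IR 2). Of all 12868 tested genes, 3571 rose and 2967 fell in cKO, and 2910 rose and 2514 fell in WT kidneys. Beside those shares, a count among 8 genes says little. Summed over the 19 markers, the level was 132 to 266 FPKM in cKO IR and 186 to 521 FPKM in WT IR. It was 589 to 799 FPKM in cKO sham and 805 to 986 FPKM in WT sham, most of it Cyp2e1 and Ttr. Alb (albumin) averaged 1.57 FPKM in cKO IR, 3.72 FPKM in WT IR, 1.42 FPKM in cKO sham and 4.78 FPKM in WT sham. Its sham difference was -1.27 (limma adjusted p = 0.0565) and was called in 5 of 19 alternative fits, among them those without cKO IR 3, WT IR 1 or WT IR 2. Cps1 and Mup3 were at 0 in all 12 libraries, and Ahsg was at 0 in cKO IR, WT IR and cKO sham. Platelet and megakaryocyte markers summed to 2.86 to 5.57 FPKM in cKO IR, 3.37 to 6.18 FPKM in WT IR, 2.23 to 3.404 FPKM in cKO sham and 2.81 to 3.36 FPKM in WT sham over 11 genes, of which Gp1bb was at 0 throughout. That sum held opposite moves. Pf4 averaged 2.66 FPKM over the IR and 0.589 FPKM over the sham libraries, and Itga2b 0.706 and 1.58 FPKM. Each entered the tests through 1 condition. Of 12 neutrophil markers 4 were tested, 3 of them only through their IR levels, so no count is given. They summed to 18.4 to 26.7 FPKM in cKO IR, 10.9 to 52.6 FPKM in WT IR, 2.77 to 3.404 FPKM in cKO sham and 1.85 to 2.48 FPKM in WT sham over 12 genes. Macrophage markers summed to 54.4 to 92.9 FPKM in cKO IR, 36.6 to 103 FPKM in WT IR, 51.4 to 77.1 FPKM in cKO sham and 50.0 to 70.1 FPKM in WT sham over 10 genes. Of the 8 tested, 2 rose and 1 fell in cKO kidneys. In WT kidneys Cd68 rose (log2 difference 1.82, limma adjusted p = 2.66e-05) and Csf1r fell (-1.31, adjusted p = 0.00235). Without WT IR 2, 3 rose and 1 fell there. The part of these cells in the chain levels was not tested.

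Genes that act on fibrinogen after synthesis were measured as well. Of 9 chaperones and transport receptors of its assembly and export, all 9 were tested, and 5 rose in each genotype. Hspa5 (BiP) averaged 183 FPKM in cKO IR against 111 FPKM in cKO sham (log2 difference 0.71, limma adjusted p = 0.000434), and 209 FPKM in WT IR against 83.9 FPKM in WT sham (1.31, adjusted p = 2.66e-05). The cKO count of 5 was 3 without cKO IR 2, and without WT IR 2 the WT counts were 4 higher and 1 lower. Lman1, which carries coagulation factors out of the endoplasmic reticulum, was at log2 differences of -0.12 and -0.08 in cKO and WT kidneys and was not called.

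Coagulation factors showed no common direction. Of 24, 11 were tested, and 5 rose and 4 fell in cKO, and 2 rose and 3 fell in WT kidneys. The WT counts were 5 and 2 without WT IR 2 and 4 and 3 without cKO IR 3. In cKO the counts were 3 and 2 without cKO IR 3 or cKO sham 2, 3 and 3 without cKO sham 1 or cKO sham 3, and 3 and 4 without WT sham 1 or WT sham 3. Without the 3 genes that entered through 1 condition, 4 rose and 2 fell in cKO, and 2 rose and 1 fell in WT kidneys. F3 (tissue factor), the trigger of coagulation, averaged 41.9 FPKM in cKO IR against 8.10 FPKM in cKO sham (log2 difference 2.22, limma adjusted p = 1.14e-05) and 28.7 FPKM in WT IR against 7.01 FPKM in WT sham (1.88, adjusted p = 5.62e-05). F2rl1, a protease receptor, rose in both genotypes. F5, the cofactor of activated factor X, averaged 0.427 FPKM in cKO IR, 0.574 FPKM in WT IR, 2.78 FPKM in cKO sham and 2.35 FPKM in WT sham, and entered the tests through its sham level. F2 (prothrombin) averaged at most 0.0621 FPKM in any group. For crosslinking of fibrin, Tgm2, a tissue transglutaminase, rose in both genotypes and F13b, the carrier subunit of factor XIII, fell in both. F13b averaged 19.1 FPKM in cKO IR against 74.8 FPKM in cKO sham, and 26.2 FPKM in WT IR against 76.9 FPKM in WT sham. Tgm1 also rose in both, a call that was lost in WT kidneys without WT IR 1, WT IR 2, WT sham 1 or WT sham 3. F13a1, the catalytic subunit, averaged 0.515 FPKM in cKO IR, 0.454 FPKM in WT IR, 0.0431 FPKM in cKO sham and 0.0690 FPKM in WT sham and was not tested.

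Of 14 genes of fibrinolysis, 12 were tested, and 8 rose and 2 fell in cKO, and 6 rose and 2 fell in WT kidneys (4 and 1 without WT IR 3, 5 and 1 without WT sham 2). Over the 9 that passed through both conditions, 6 rose and 2 fell in cKO, and 4 rose and 1 fell in WT kidneys. Anxa2 and S100a10, which together bind plasminogen at the cell surface, rose in both genotypes, with log2 differences of 3.56 and 2.92 in cKO and 3.11 and 2.29 in WT kidneys. Plau (urokinase) rose by 1.43 in cKO (limma adjusted p = 0.000166) and by 0.52 in WT kidneys (adjusted p = 0.049, over 0.05 in 9 of 19 alternative fits). Plat was called in cKO alone (0.99, adjusted p = 0.00445), with 0.56 in WT kidneys, and the interaction was not called for Plau or Plat. Plg (plasminogen) averaged at most 0.287 FPKM. Hrg, a plasma protein that binds fibrinogen and plasminogen, averaged 0.536 ± 0.250 FPKM in cKO sham and 2.89 ± 0.727 FPKM in WT sham (SD, n = 3 each). It passed the filter only through WT sham, so this difference is given with no test.

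Of 11 receptors of fibrin and fibrinogen, 8 were tested, and 4 rose in each genotype, while Itga2b, the platelet integrin chain, entered through its sham level. It averaged 0.580 FPKM in cKO IR, 0.831 FPKM in WT IR, 1.44 FPKM in cKO sham and 1.72 FPKM in WT sham. Icam1, an adhesion molecule that binds fibrinogen, averaged 17.5 FPKM in cKO IR against 7.89 FPKM in cKO sham (log2 difference 1.01, limma adjusted p = 0.00727) and 14.8 FPKM in WT IR against 4.40 FPKM in WT sham (1.53, adjusted p = 0.00103). The integrin chains Itgb1, Itga5 and Itgav rose in both genotypes. Itgam, whose product with that of Itgb2 forms the leukocyte receptor Mac-1, averaged at most 0.836 FPKM, and Itgb2 was not called in either genotype. In cKO IR against WT IR, no gene of any list was called.

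Levels of the neighbours on the chromosome spanned less. Plrg1, 5658 bases beyond Fgb, averaged 11.2 ± 0.838 FPKM in cKO IR, 10.95 ± 0.836 FPKM in WT IR, 9.23 ± 0.772 FPKM in cKO sham and 8.28 ± 0.323 FPKM in WT sham (SD, n = 3 each). Its log2 difference was 0.25 in cKO (limma adjusted p = 0.0249, over 0.05 without cKO IR 1, cKO IR 2, cKO sham 2 or cKO sham 3) and 0.36 in WT kidneys (adjusted p = 0.00525). Gm30097, a noncoding RNA gene on the other strand that overlaps Fgg by 765 bases, averaged 0.805, 0.747, 1.23 and 1.90 FPKM in the same groups. Whether counting used strand is not stated, so reads of the overlap cannot be told apart. Lrat averaged 0.361 FPKM in cKO IR and 0.362 FPKM in WT IR, against 0.926 FPKM in cKO sham and 1.27 FPKM in WT sham. Rbm46 and Dchs2 averaged at most 0.138 FPKM in any group. Farther out, Tlr2 rose in both genotypes and Sfrp2 fell in both, with log2 differences of 1.46 and -0.80 in cKO and 1.59 and -1.01 in WT kidneys, and the cKO call of Sfrp2 was lost without cKO IR 2, cKO sham 1 or cKO sham 2.

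**Figure D5:**
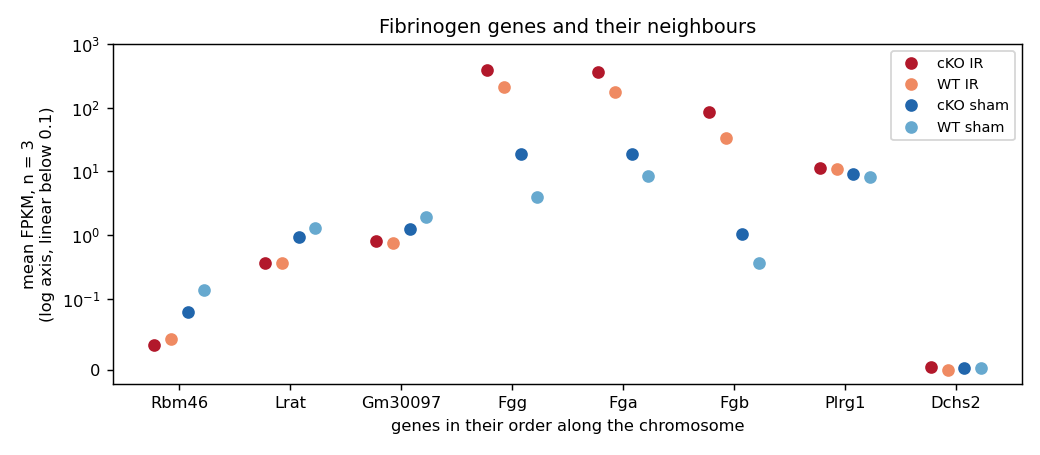
Mean FPKM (n = 3) of the fibrinogen genes and their neighbours by group, in their order along the chromosome, on a log axis that is linear below 0.1. Fgg, Fga and Fgb run from 33.7 to 388 FPKM in the IR groups (red and orange) and from 0.359 to 18.7 FPKM in the sham groups (dark and light blue), while Plrg1 lies between 8.28 and 11.2 FPKM in all groups.

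Of 16 genes whose proteins share the fibrinogen domain, 7 were tested, and 2 rose and 2 fell in cKO, and 1 rose and 2 fell in WT kidneys (in cKO 4 fell without cKO IR 3 or WT IR 2). Tnc (tenascin C) entered through its IR level, at 9.58 FPKM in cKO IR and 6.41 FPKM in WT IR, against 0.656 FPKM in cKO sham and 0.616 FPKM in WT sham. Without it 1 rose and 2 fell in cKO, and none rose and 2 fell in WT kidneys. Angpt1 and Angptl2 fell in both. Fgl1, a liver relative, averaged at most 0.405 FPKM in any group.

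As a description over the 12 libraries, the chains followed each other closely on the log2(FPKM + 1) scale, with Pearson's r of 0.992 for Fgg and Fga, 0.991 for Fga and Fgb and 0.973 for Fgg and Fgb. The 4 groups set most of that range, and library and depth are shared. Over the same libraries the 5 tested genes with the highest r to the mean of the standardised chains were Ostc (0.991), Spp1 (0.991), Tnfrsf1a (0.99), Mvp (0.989) and Hesx1 (0.987). Spp1 (osteopontin) averaged 11886 ± 688 FPKM in cKO IR, 8002 ± 2171 FPKM in WT IR, 706 ± 45.7 FPKM in cKO sham and 335 ± 15.2 FPKM in WT sham (SD, n = 3 each). It too was called in cKO sham against WT sham (log2 difference 1.07, limma adjusted p = 0.0217), a call lost in 7 of 19 alternative fits, 6 of which left out a sham library. Ostc, a subunit of the complex that adds N-linked sugars, spanned far less, at 20.7 ± 0.610, 18.6 ± 0.250, 11.2 ± 0.427 and 9.46 ± 0.525 FPKM in cKO IR, WT IR, cKO sham and WT sham. Tnfrsf1a encodes a receptor of tumour necrosis factor, Mvp the major vault protein and Hesx1 a homeobox factor.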

How the data were processed

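Kidney RNA of 12 libraries was analysed, 3 in each of 4 groups taken from the titles. The table of FPKM values that the authors deposited holds 56748 genes and a length for each. The submitters' processing notes name HISAT2 2.2.1 and the builds mm8 and mm9. The sources used here name no counter, annotation or filter. Multiplying FPKM by gene length and dividing by the smallest step of each library returned reads, within 2.97e-09 of a whole number. Levels were tested as log2(FPKM + 1) in limma 3.58.1 under R 4.3.3, with 1 mean per group, a trend in variance and 8 residual and 2.59 prior degrees of freedom. Tests were two-sided, over the 12868 genes whose mean reached 1 FPKM, and called where the Benjamini-Hochberg adjusted p was under 0.05. Comparisons with shared control samples are set side by side. Ratios and correlations used exact permutation tests in SciPy 1.17.1, and coding lengths came from GENCODE M21. Low FPKM values carry counting error, and without molecular identifiers duplicate reads of 1 molecule cannot be seen.

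The chains and the gene lists were chosen with earlier results of these data known. The genes named were the chains, up to 3 called members per list with the smallest p in WT IR against WT sham and in cKO IR against WT IR, up to 2 in cKO sham against WT sham, a fixed set of IL-6, STAT3, crosslinking, fibrinolysis and receptor genes, the neighbours, and the 5 genes most like the chains. Saa1, Orm1, Crp, Hp, Serpina3n, Cp, Mt1, Fgl1, Cish, Ctf1, Cntfr, Lman1, Cps1, Mup3, Ahsg, Gp1bb, Itga5 and Itgav were named after their values were seen. Alternatives were another pseudocount, no filter, 2 other scalings, limma voom on reads, only the 2 groups compared, a replicate block and leaving out each library. Counts without genes that passed the filter through 1 condition were added after the data were seen. The test was checked on simulated data. Values of some list members are not reported here.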

Additional observations from a re-analysis of the deposited data

Results flagged for a closer look

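Hrg, the histidine-rich glycoprotein of plasma, was flagged because it alone in the fibrinolysis list had a called interaction, 1.26 on the log2(FPKM + 1) scale (SE 0.25, limma adjusted p = 0.0447). It averaged 0.268 FPKM in cKO IR, 0.347 FPKM in WT IR, 0.536 FPKM in cKO sham and 2.89 FPKM in WT sham, so WT sham stood apart from the other groups. It was also the one group through which Hrg passed the filter on low values, so the gene was chosen by the value compared, and the p cannot be read as a test free of that choice. The adjusted p ranged from 0.0405 to 0.173 over 18 alternative fits, of which 16 did not call it. None of the chains met this criterion. Groups of 3 libraries are too small for the check on single outlying samples, which was not run.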

How the results depend on the processing

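Directions of the genotype differences held in all alternatives, and no chain was called in cKO IR against WT IR in any of them. Called genes in that contrast, 0 as reported, were 9 with no filter, 1 under limma voom, pseudocount 0.1, median-ratio scaling or plain library totals, and 0 to 12 with 1 library left out. In cKO sham against WT sham, 142 were called, 251 with only the 2 groups compared, and 55 to 208 with 1 library left out. The Fgg difference there was 1.68 to 2.26 with 1 library left out. In the interaction, 113 were called (38 higher, 75 lower), 29 higher and 111 lower at plain library totals, 28 and 132 under limma voom, and 41 to 150 with 1 library left out. Plain totals moved the median of all genes in WT IR against WT sham to 0.13 and the calls to 4160 higher and 1845 lower, and limma voom to 0.16, 4124 and 1865, against 0.01, 2910 and 2514 as reported. The Fga interaction was -0.23 to 0.24 with 1 library left out and changed sign within it. The Fgb interaction was -0.24 under limma voom. IR differences of Fgb were 6.35 in cKO and 6.59 in WT kidneys under limma voom, and 6.16 and 6.09 with pseudocount 0.1, and that of Fgg in WT kidneys was 5.82 under limma voom. Adding 1 FPKM before the log shrinks changes from low values by construction. The cause of the other changes was not tested. With Lcn2 alone as the injury measure, r over 6 IR libraries was 0.86 for Fgg, 0.87 for Fga and 0.91 for Fgb (exact permutation, adjusted p = 0.0208 each), where the genotypes did not overlap either, and the cause of the change was not tested.

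Same-numbered libraries correlated at -0.186 to 0.401 in 18 pairs, so the numbers were not taken to pair them. A replicate block gave 73 called genes in the interaction and 123 in cKO sham against WT sham, and changed no call of a chain. Fgb in sham kidneys is limited by depth: 3 reads correspond to 0.0463 to 0.0594 FPKM.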
